A study of Mus musculus with 899 samples.

Results

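Plasma of C57Bl/6 mice at month 6 after whole thorax irradiation held more of the pancreatic miRNA miR-216a-5p and miR-217-5p than plasma of sham irradiated mice. Of 483 miRNA tested, these 2 passed the threshold, and both were higher in irradiated mice. In females, irradiated mice also had less miR-202-5p, a gonadal miRNA, than sham mice. The samples were chosen by their labels as C57Bl/6 at month 6, which gave 24 samples, 8 from irradiated and 16 from sham mice, beside 875 other plasma samples in the series.

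Irradiated mice had received a single exposure of the whole thorax and the other group was sham irradiated. Both groups came from the same cohort and hold 2 irradiated and 4 sham mice for each combination of sex and early bleeding day (day 2 or day 5). Every one of the 24 mice had also been bled before irradiation and at months 1 to 5, so earlier plasma of the same animals is available. Of 36 irradiated mice of this cohort, 36 were sampled at months 1 and 2, 31 at month 3, 29 at month 4, 21 at month 5 and 8 at month 6, whereas all 16 sham mice were sampled at each month. The irradiated group at month 6 therefore holds the mice that reached this time point, and irradiation and survival to month 6 cannot be told apart in this comparison. The study took blood from behind the eye of live mice and from the heart at the end, and which route gave each month 6 sample is not given in the sources used here, so its part in the values was not tested. Plasma also mixes miRNA of many tissues, and release by more cells and more release per cell cannot be told apart.

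A miRNA is a short RNA of about the length of the sequences printed here that guides the Argonaute protein to messenger RNA, mainly through its seed, bases 2 to 8 from the 5′ end. Cells release miRNA into plasma in vesicles, in protein complexes and when they are damaged, so miRNA made mainly by a single cell type serve as markers of that cell type in blood. The miR-216a, miR-216b and miR-217 genes form a cluster that is expressed mainly in the acinar cells of the pancreas, the cells that make digestive enzymes. The miR-34 family is transcribed under control of p53, the factor that responds to DNA damage, and miR-122 is the main miRNA of hepatocytes.

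The sequences that carry the differences are the mature forms from RefSeq (GRCm38.p6), with the seed in capitals. The first 3 are the acinar cluster, and the next 3 are the other miRNA that the comparisons below turn on.
miR-216a-5p: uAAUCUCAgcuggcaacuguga
miR-216b-5p: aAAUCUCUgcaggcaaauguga
miR-217-5p: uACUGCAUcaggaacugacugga
miR-335-5p: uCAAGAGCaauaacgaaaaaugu
miR-34a-5p: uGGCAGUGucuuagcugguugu
miR-202-5p: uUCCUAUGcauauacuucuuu
The seeds of miR-216a-5p and miR-216b-5p are equal at 6 of 7 positions and differ by A8U, counted from the 5′ end with the base of miR-216a-5p first. The seed of miR-217-5p shares 2 of 7 positions with that of miR-216a-5p. None of the acinar seeds occurs in another of the 1679 mature mouse miRNA of the RefSeq reference, while that of miR-34a-5p occurs in 4 of them, which are miR-34a-5p, miR-34b-5p, miR-449a-5p and miR-449c-5p. These counts cover that reference only, which holds fewer miRNA than the 1915 with deposited counts, and may be incomplete. The family member miR-34c-5p is not among the 4, and whether the reference holds it was not examined.

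The acinar genes lie on the plus strand of chromosome 11 of GRCm38. Mir216b spans chr11:28746191-28746276, outside any host gene but opposite Mir216c. Mir216a spans chr11:28757012-28757083 and Mir217 spans chr11:28763728-28763835, and both are in introns of the long noncoding RNA gene Gm12082. The starts of Mir216a and Mir217 are 6716 bases apart. Both hairpins are printed with the 5p arm in capitals, because all of their reads at month 6 came from that arm.
Mir216a hairpin: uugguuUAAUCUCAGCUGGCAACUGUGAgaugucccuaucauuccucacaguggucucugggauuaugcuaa
Mir217 hairpin: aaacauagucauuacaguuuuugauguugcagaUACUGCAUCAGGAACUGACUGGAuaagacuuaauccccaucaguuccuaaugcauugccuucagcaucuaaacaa
The 3p arms of Mir216a, Mir216b and Mir217 and both arms of Mir216c had 0 reads in all 24 samples, which allows up to 0.136 CPM (counts scaled to a common library size) in the pooled irradiated and 0.0817 CPM in the pooled sham libraries, counting error only. Mir335 (chr6:30741299-30741396) is in an intron of Mest, Mir34a (chr4:150068454-150068555) overlaps an exon of the unclassified gene Gm37795, and Mir202 (chr7:139957689-139957760, minus strand) overlaps an exon of the noncoding gene Gm2044.

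Libraries held 1567633 to 6795899 miRNA reads in irradiated and 1085631 to 9022364 in sham mice. Neither the total reads (exact two-sided permutation test, p = 0.559, 8 against 16 mice) nor the share of miR-16-5p, the most abundant miRNA in every sample, passed the threshold. That share was 41.1% ± 6.05 (SD, n = 8) in irradiated mice and 36.7% ± 7.02 (SD, n = 16) in the sham group (exact two-sided permutation p = 0.144, adjusted over both tests 0.289). The library of irradiated female 1046 stood apart from the other irradiated mice, with 54.1% of reads from miR-16-5p, the highest summed level of erythroid miRNA of the 24 mice (84343 CPM) and the lowest normalization factor of the irradiated group (0.814). Without it, the erythroid list had 5 of 7 higher values and a median log2 fold change of 0.01 instead of 0.19. Markers of red blood cells were present at 22744 to 84343 CPM in irradiated and 21437 to 64489 CPM in sham mice, and 6 of 7 tested erythroid miRNA had higher values in irradiated mice with none called. The list's median was 0.55 in females and -0.14 in males, and in the own change from before irradiation 0 of 7 were higher (-0.12).

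For the comparison of irradiated with sham mice at month 6, edgeR's quasi-likelihood test was used with Benjamini-Hochberg adjustment over 483 miRNA, and an adjusted p under 0.05 is a call. In all, 0.414% of the miRNA tested were called, and 45 had an unadjusted p under 0.05, 17 with higher and 28 with lower values in irradiated mice. The median log2 fold change of all miRNA tested was -0.08. In the plot of fold change against abundance, some uncalled miRNA of low abundance had fold changes of similar size to the called pair. Among them were miR-216b-5p at 2.79 and miR-487b-3p at -3.25.

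**Figure D1:**
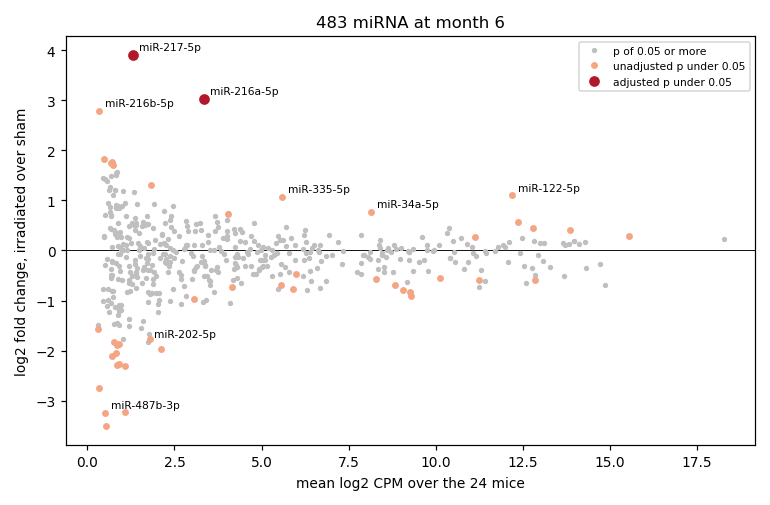
Each point is a miRNA, with its mean log2 CPM over the 24 mice on the x axis and its log2 fold change of irradiated over sham mice at month 6 on the y axis. Both called miRNA (red) lie at 3.03 and 3.91, miRNA with an unadjusted p under 0.05 are orange, and miR-335-5p and miR-122-5p lie at 1.07 and 1.10 at higher abundance.

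miR-216a-5p was found in 7 of 8 irradiated mice at 26.3 CPM or more and in all 16 sham mice at 13.9 CPM or less. In irradiated mice it was 70.9, 59.2, 40.8 and 65.8 CPM in the males 1009, 1010, 1022 and 1024, and 38.1, 26.3, 46.7 and 0 CPM in the females 1029, 1030, 1042 and 1046. These values rest on 302, 130, 89, 119, 97, 221, 124 and 0 reads in the same order. In sham mice the lowest, median and highest values were 1.92, 4.27 and 13.9 CPM. All irradiated mice other than female 1046 were thus above every sham mouse, and female 1046 was below every sham mouse. On the log2 scale the level was 4.93 ± 1.95 (SD, n = 8) in irradiated mice and 2.55 ± 0.65 (SD, n = 16) in the sham group. The fitted log2 fold change was 3.03 (standard error 0.46, edgeR adjusted p = 2.70e-08), which is 8.18-fold. Without female 1046 it was 3.22 (edgeR adjusted p = 3.87e-09).

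miR-217-5p, from the neighbouring gene, was found in the same 7 irradiated mice at a lower level. In irradiated mice it was 13.4, 12.8, 3.21 and 11.1 CPM in the males and 10.2, 3.21, 5.27 and 0 CPM in the females, in the order given for miR-216a-5p. In sham mice it had no reads in 10 of 16 animals and was at most 1.92 CPM in the others. Again 7 of 8 irradiated mice were above every sham mouse, and female 1046 had no reads, without which the log2 fold change was 4.10. The pooled reads were 179 in irradiated and 17 in sham mice, and the fitted log2 fold change was 3.91 (standard error 0.71, edgeR adjusted p = 9.84e-06). In the 7 irradiated mice with reads of both, there were 3.73 to 12.7 reads of miR-216a-5p for each read of miR-217-5p, with a median of 5.95.

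miR-216b-5p, the third member of the cluster, was near the detection limit. It had 6 reads in male 1009 and 5 in female 1042, and none in the other irradiated mice or in any sham mouse. Its pooled level in irradiated mice was 6.10 times the sham floor, taken as 3 reads over all sham libraries. This ratio includes neither the counting error of the irradiated reads nor the spread between mice, so it is not a lower bound. miR-216b-5p did not pass the threshold in edgeR's test (adjusted p = 0.0738), but did without female 1030 (0.0448) or without female 1046 (0.0419), with the same tool. In the other 22 of 24 single omissions it did not pass, with an edgeR adjusted p of up to 0.295. In all, 2 of the 3 tested members of the acinar list were called and the median log2 fold change of the 3 was 3.03, beside -0.08 over all miRNA. The summed level of the list was 0 to 85.7 CPM (median 51.0) in irradiated and 1.92 to 15.8 CPM (median 4.79) in sham mice.

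**Figure D2:**
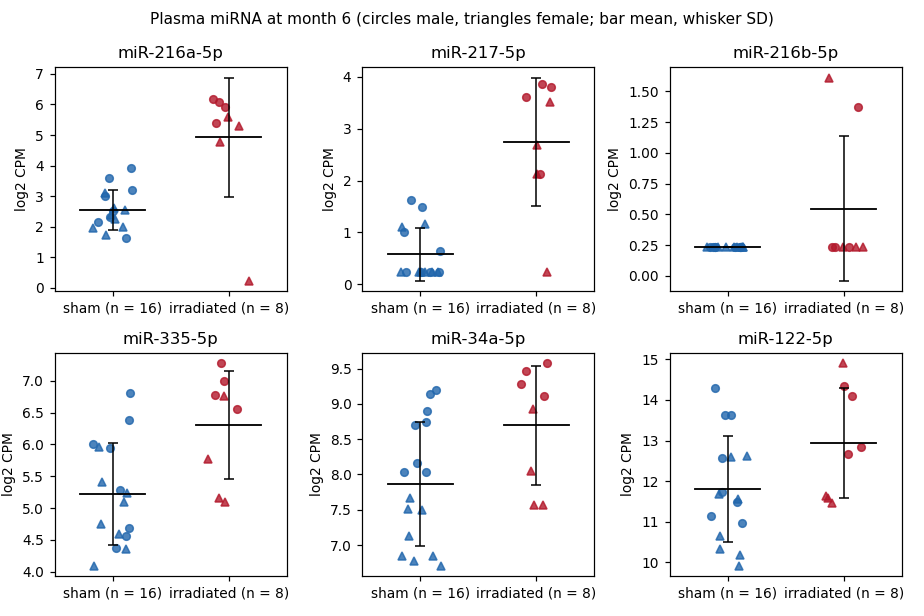
Level of 6 miRNA at month 6 in log2 CPM on the y axis, with each mouse as a point (circles males, triangles females), the mean as a bar and the SD as a whisker, for 16 sham and 8 irradiated mice. For miR-216a-5p and miR-217-5p, 7 of 8 irradiated mice lie above all sham mice, whereas for miR-335-5p, miR-34a-5p and miR-122-5p the groups overlap, and 0.23 is the value of a sample with no reads.

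The difference in miR-216a-5p and miR-217-5p was also examined in both sexes and in the sets bled early at day 2 and at day 5. In males, 4 irradiated mice ranged from 5.39 to 6.17 log2 CPM of miR-216a-5p and 8 sham mice from 1.63 to 3.91, so the groups did not overlap. In females, irradiated mice ranged from 0.23 to 5.58 and sham mice from 1.71 to 3.11. The fitted log2 fold change of miR-216a-5p was 3.15 in males (edgeR adjusted p = 0.000292) and 2.77 in females (0.00257), and that of miR-217-5p was 3.91 in males (edgeR adjusted p = 0.0189) and 3.74 in females (0.0153). The difference between the sexes was -0.38 ± 0.94 (standard error) for miR-216a-5p and did not pass the threshold (edgeR adjusted p = 1.00). Mean differences of miR-216a-5p within the sets were 2.97 log2 CPM for the day 2 set and 1.78 for the day 5 set, which was 3.14 without female 1046. The fitted value in females without this mouse was 3.18 (edgeR adjusted p = 0.000736) for miR-216a-5p and 4.14 (0.00823) for miR-217-5p.

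Whether the level had changed within animals was examined against each mouse's own plasma from before irradiation. miR-216a-5p was 3.31 ± 1.92 (SD, n = 8) log2 CPM above the own earlier sample in irradiated mice and 0.80 ± 1.46 (SD, n = 16) above it in the sham group. It was higher than before in 7 of 8 irradiated mice, and female 1046 had no reads at either time, so that the mean without this mouse was 3.78 ± 1.49 (SD, 7 mice). miR-217-5p changed by 2.26 ± 1.55 (SD, n = 8) in irradiated mice and by -0.25 ± 1.14 (SD, n = 16) in the sham group. In an edgeR fit with the mouse as a replicate block, however, no miRNA passed the threshold for a different change in irradiated mice (0 of 483, 0%), and 24 had an unadjusted p under 0.05. In that fit the change of miR-216a-5p differed by 3.19 (standard error 0.94, edgeR adjusted p = 0.271) and that of miR-217-5p by 6.31 (standard error 2.06, adjusted p = 0.398). With limma-voom and the same block, miR-217-5p was called (adjusted p = 0.0229) and miR-216a-5p was not (0.307). Without the block, edgeR's fit of all samples called 3 miRNA, all of the acinar cluster. Its baseline was every C57Bl/6 mouse sampled before irradiation, including mice not sampled at month 6.

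miR-335-5p, which is transcribed with the imprinted gene Mest, had the smallest p outside the acinar cluster. Its lowest, median and highest levels were 32.9, 100.1 and 154.0 CPM in irradiated and 15.9, 34.9 and 111.0 CPM in sham mice. The groups overlapped, with 2 irradiated mice above every sham mouse and 6 above the sham median. The log2 fold change was 1.07 (standard error 0.31) and missed the threshold (edgeR adjusted p = 0.0769). It passed without sham male 1014 (adjusted p = 0.0155) or 1016 (0.0409) and without irradiated female 1030 (0.0476), 1042 (0.0296) or 1046 (0.0371), always in edgeR, and the log2 fold change over all single omissions was 0.91 to 1.24. In the other 19 of 24 single omissions it did not pass, with an edgeR adjusted p of up to 0.401. It was also called when the 244 miRNA with a mean of 10 CPM or more were tested alone (adjusted p = 0.0251). Among 16 other settings, this one included, 5 called it and 11 did not. Relative to the own sample before irradiation, miR-335-5p was higher in 7 of 8 irradiated mice (mean 1.63 ± 1.90, SD) and lower in 12 of 16 sham mice (mean -0.66 ± 1.12, SD), and the blocked difference of 2.16 did not pass (edgeR adjusted p = 0.231). The largest of these changes, 4.86, was that of female 1046, which had no reads of miR-335-5p before irradiation, and without this mouse the mean change was 1.17 ± 1.49 (SD, 7 mice). Median levels before irradiation were already unequal, at 5.08 log2 CPM in the 8 later irradiated and 5.69 in the 16 sham mice.

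miR-34a-5p ranged from 188 to 763 CPM in irradiated mice with a median of 519, and from 103 to 588 CPM in sham mice with a median of 231. In both groups values were higher in males than in females, at 9.36 ± 0.20 (SD, n = 4) in irradiated and 8.61 ± 0.48 (SD, n = 8) log2 CPM in sham males, and 8.02 ± 0.64 (SD, n = 4) and 7.12 ± 0.38 (SD, n = 8) in irradiated and sham females. Over all mice the log2 fold change was 0.77 (standard error 0.28, edgeR adjusted p = 0.252). With sex and early bleeding day as covariates in the 24 samples it was 0.88 and was called (edgeR adjusted p = 0.0136), as it was by limma-voom with the mouse as a random replicate block (0.91, adjusted p = 0.0339). The level at month 6 was above that before irradiation in all 8 irradiated mice (mean 2.83 ± 1.29, SD) and also in all 16 sham mice (1.52 ± 0.99, SD). The largest change, 4.15, was that of female 1046, which had 6 reads of miR-34a-5p before irradiation. Without this mouse the irradiated mean was 2.64 ± 1.27 (SD, 7 mice). Over the miR-34 family, 5 of 6 tested members had higher values in irradiated mice and 0 were called, with a median log2 fold change of 0.56. The values were 0.73 for miR-34c-3p, 0.56 for miR-34c-5p and 0.56 for miR-34b-3p, all of which derive from the other p53-controlled locus of the family.

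miR-122-5p, the hepatocyte miRNA, ranged from 2820 to 30749 CPM in irradiated mice with a median of 6917, and from 959 to 20110 CPM in sham mice with a median of 3145, so the ranges overlapped widely. The log2 fold change was 1.10 (standard error 0.44, edgeR adjusted p = 0.408). Of 8 liver miRNA tested, 6 had higher values and 0 were called, with a median of 0.72. miR-192-5p, which is also made by gut and kidney, was at 0.57 (edgeR adjusted p = 0.527) and miR-802-5p at 0.75 (0.587). The 2 members with lower values were miR-194-5p at -0.04 (edgeR adjusted p = 0.983) and miR-193b-3p at -1.78 (0.527). Each mouse's own change of miR-122-5p was positive in 8 of 8 irradiated mice (mean 2.10 ± 1.23, SD) and in 9 of 16 sham mice (0.08 ± 1.71, SD), and the blocked difference of 1.92 did not pass (edgeR adjusted p = 0.271). These changes started from unequal levels, with medians before irradiation of 10.55 log2 CPM in the later irradiated and 11.67 in sham mice. Only 2 of the 8 later irradiated mice were then above the sham median.

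The same 24 mice were then followed over time, to see whether the month 6 differences were present before. The edgeR fit of these mice took samples as independent and held no term for the mouse. Before irradiation, edgeR already called 1 miRNA between the later groups (0.207% of those tested), miR-188-5p at -5.38 (adjusted p = 0.0298). It called 6 at day 2 (1.24%) and 3 at day 5 (0.621%), among them miR-375-3p with higher and miR-150-5p with lower levels at both days in irradiated mice, and 2 at month 1 (0.414%), miR-18b-5p and miR-1249-3p. Among the same mice, edgeR called 3 miRNA at month 2 (0.621% of those tested), 1 at month 3 (0.207%), 4 at month 4 (0.828%) and 9 at month 5 (1.86%), and at month 6 it called miR-216a-5p and miR-217-5p. miR-216a-5p was among the calls at each of months 2 to 6, with log2 fold changes of 3.15, 2.99, 2.53, 1.98 and 3.03 (edgeR adjusted p = 8.72e-05, 0.000154, 0.00378, 0.0381 and 0.000122). Its median in irradiated mice was 1.60 log2 CPM before irradiation, 3.61 at month 1, 5.29 at month 2, 6.01 at month 3, 4.96 at month 4, 5.78 at month 5 and 5.49 at month 6. Its median in sham mice stayed between 2.33 and 2.74 from month 1 to month 6, with 1.82 before irradiation. Irradiated mice with a value above every sham mouse numbered 2 at month 1, 6 at month 2, 6 at month 3, 5 at month 4, 0 at month 5 and 7 at month 6. At month 5 the highest value was that of sham female 1027, with 188 reads of miR-216a-5p (6.95 log2 CPM) and 37 of miR-217-5p, and at month 6 the same mouse had 8 and 3 reads. miR-217-5p was called at month 6 only, but its level in irradiated mice was similar earlier. Its irradiated median was 1.56, 2.84, 2.57, 3.16, 3.35 and 3.10 log2 CPM at months 1 to 6. The sham median was 0.73, 0.90, 0.23, 0.23, 0.94 and 0.23. Irradiated mice above every sham mouse for miR-217-5p numbered 2, 6, 4, 5, 0 and 7 at these months. Irradiated female 1046 had reads of miR-216a-5p at each of months 1 to 5, with 2.42, 2.92, 2.93, 3.04 and 4.17 log2 CPM, which was above the sham median at each of these months. Among the other calls were miR-122-5p, miR-192-5p and miR-34a-5p at month 4, and miR-122-5p, miR-192-5p, miR-150-5p and miR-216b-5p at month 5.

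**Figure D3:**
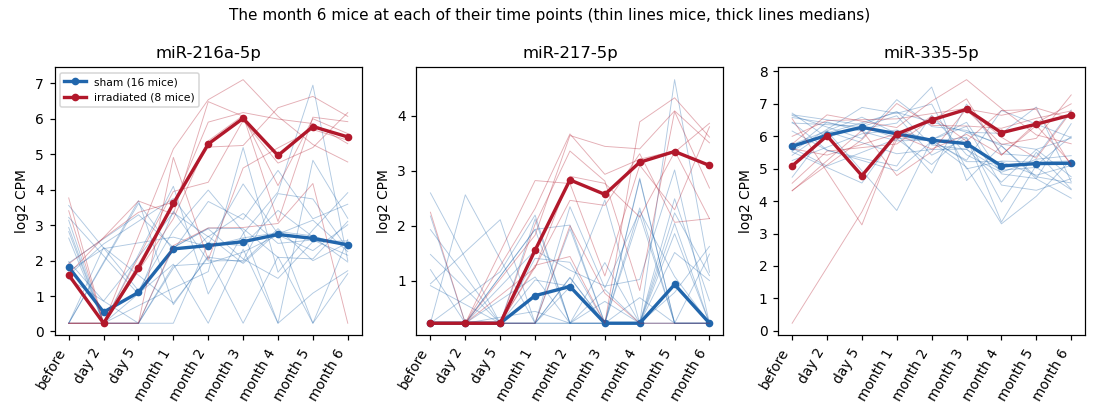
Level in log2 CPM on the y axis of 3 miRNA in the mice sampled at month 6, from before irradiation to month 6 on the x axis, with thin lines for mice and thick lines for the medians of 8 irradiated (red) and 16 sham mice (blue). The irradiated median of miR-216a-5p is at 1.60 before irradiation and at 5.49 at month 6, against 1.82 and 2.44 in sham mice (4 irradiated and 8 sham mice at days 2 and 5).

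Whether the irradiation effect at month 6 differed from that at earlier months was tested over all C57Bl/6 mice sampled then. Between months 6 and 5, 0 of 483 miRNA (0%) passed in edgeR, with 22 at an unadjusted p under 0.05, and limma-voom also called 0 (25 unadjusted). The smallest p was that of miR-122-5p, whose effect was 2.13 lower at month 6 on the log2 scale (log2 difference -2.13, standard error 0.60, edgeR adjusted p = 0.193). That of miR-217-5p was 2.75 higher (standard error 0.86, edgeR adjusted p = 0.361), and that of miR-1247-5p differed by -1.58 (0.621). In the 24 mice alone with the mouse as a replicate block, these differences were -1.30 for miR-122-5p and 1.90 for miR-217-5p (edgeR adjusted p = 0.921 for both). Between months 6 and 1, 0 of 483 (0%) passed in edgeR, with 28 at an unadjusted p under 0.05, and limma-voom again called 0 (46 unadjusted). The smallest p values were those of miR-219a-2-3p, a neural miRNA (-4.37, edgeR adjusted p = 0.171), miR-122-5p (1.65, 0.194) and miR-487b-3p (-3.26, 0.304), and with the block that of miR-122-5p was 0.87 (edgeR adjusted p = 1.00). The irradiated groups at months 5 and 1 include mice that were not sampled at month 6. At month 1, the 100 C57Bl/6 samples also include irradiated and sham mice of another cohort.

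miR-202-5p, which is made mainly in ovary and testis, was the single miRNA whose irradiation effect differed between females and males at month 6 (1 of 483, 0.207%). In females, the irradiated mice had 0, 0, 1 and 0 reads, whereas the sham mice had 8 to 55 reads with a median of 22.5. No irradiated female overlapped with the sham females, and the fitted log2 fold change was -6.02 (standard error 1.27, edgeR adjusted p = 0.00122). The pooled level in sham females was 112 times that in irradiated females, with an exact counting interval of 19.8 to 4427 that rests on the 1 read and covers counting error only. In males, the irradiated mice had 8, 10, 6 and 5 reads and the sham mice 0 to 7, with a fitted log2 fold change of 1.54 (standard error 0.92) that did not pass (edgeR adjusted p = 1.00). The difference of the effects, female minus male, was -7.56 (standard error 1.56, edgeR adjusted p = 0.000684), and it was also called by limma-voom, in the 24 samples alone, among miRNA of 10 CPM or more, and without female 1046.

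The other arm, miR-202-3p, had 0 reads in the 4 irradiated females and 104 in the 8 sham females. The pooled sham level was 19.05 times the floor of 3 reads over the irradiated females. This ratio includes neither the counting error of the sham reads nor the spread between mice. miR-202-3p was called in females (-5.88, edgeR adjusted p = 0.00383), while its difference between the sexes (-5.45) was not in edgeR (adjusted p = 0.289) but was by limma-voom. The females alone gave 4 calls (0.828%), these being both arms of miR-202 with lower levels and miR-216a-5p and miR-217-5p with higher ones. The males alone gave 2 calls (0.414%), miR-216a-5p and miR-217-5p.

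Before irradiation, miR-202-5p did not separate the females of either group, with 21.5 to 33.7 CPM in the 4 later irradiated and 18.2 to 45.9 CPM in the 8 sham mice. At day 2, both irradiated females sampled were at 115 and 212 CPM against 5.81 to 65.8 CPM in 4 sham females, and at day 5 the other irradiated females were at 10.6 and 11.6 CPM against 9.45 to 40.2 CPM. At month 1 the irradiated females were at 0 to 6.34 CPM and the sham females at 10.6 to 64.9 CPM. From month 2 to month 6 no irradiated female was above 1.08 CPM, while the sham median was 26.3, 34.4, 12.0, 9.55 and 10.2 CPM at months 2, 3, 4, 5 and 6. In females the groups did not overlap at months 1, 2, 3, 5 and 6, and at month 4 a single sham female had no reads.

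**Figure D4:**
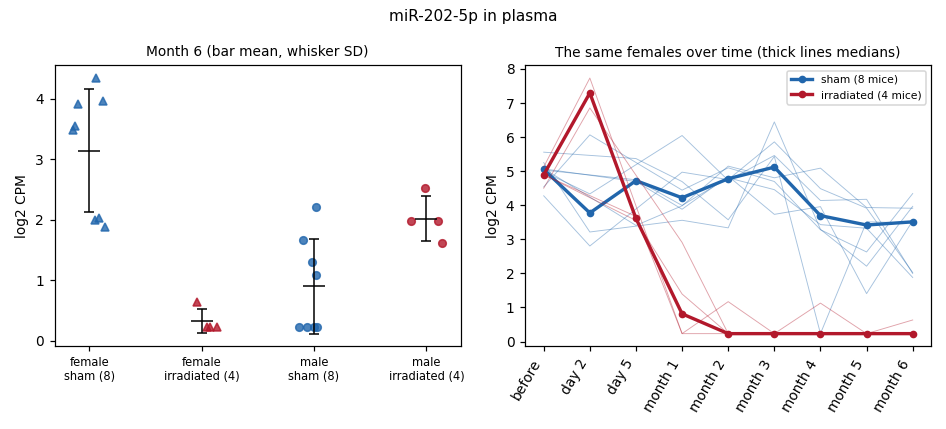
miR-202-5p in log2 CPM on the y axis, at month 6 by sex and treatment (left, points mice, bars means, whiskers SD) and in the females over time (right, thin lines mice, thick lines medians of 4 irradiated and 8 sham females). The irradiated females are level with the sham females before irradiation, at 21.5 to 33.7 CPM, and at or near 0 reads (0.23) from month 2 on.

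Other marker lists held no call at month 6, and their members are given by counts and medians, beside 209 higher and 274 lower values over all 483 miRNA. All 9 let-7 miRNA, which restrain growth and are abundant in differentiated cells, had lower values in irradiated mice, with a median log2 fold change of -0.51, and the same 9 of 9 were lower under each of the other settings tried. The lowest was let-7d-5p at -0.79 (edgeR adjusted p = 0.527), and the summed level of the list was 39574 to 102538 CPM in irradiated and 39096 to 186422 CPM in sham mice. miR-99b-5p and miR-125a-5p, which are encoded with let-7e, were at -0.68 (edgeR adjusted p = 0.252) and -0.55 (0.398), and let-7e-5p was at -0.58 (0.527). Within the sexes, the let-7 median was -0.87 in females and -0.13 in males.

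Among 11 leukocyte miRNA, 7 had higher values and the median was 0.11. The lymphocyte miRNA miR-150-5p was at 0.15 (edgeR adjusted p = 0.851), miR-146a-5p, a brake on inflammatory signalling, at 0.45 (0.527), and miR-142a-3p at -0.83 (0.527). Both arms of the endothelial miR-126a had higher values with a median of 0.28, and miR-126a-5p was at 0.40 (edgeR adjusted p = 0.527). Of 13 stromal and fibrosis miRNA, 10 had lower values with a median of -0.14, which was 0.03 in females alone. In that list miR-21a-5p, which accompanies fibrosis in many tissues, was at 0.29 (edgeR adjusted p = 0.527) and miR-29b-3p, which targets collagen messages, at -0.91 (0.527). Their relatives differed from them, with the other arm miR-21a-3p at -0.83, miR-29a-3p at -0.11 and miR-29c-3p at -0.04.

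The endocrine and gut list, with miR-375-3p at 0.26, had a median of 0.24, the erythroid list 0.19, the miR-106a to miR-363 cluster 0.01 and the miR-17 to miR-92a cluster -0.04, the last 2 with the other sign under another scaling. The miR-106a to miR-363 median was -0.36 in females and 0.43 in males. The medians were -0.08 for 3 smooth muscle, -0.12 for 8 skeletal and heart muscle, -0.12 for 10 epithelial and -0.39 for 9 neural miRNA, while the quantile-normalized values gave 0.28 for skeletal and heart muscle and 0.05 for epithelial miRNA, and limma-voom gave 0.02 for smooth muscle miRNA. The median of the 2 gonadal miRNA, both arms of miR-202, was -2.53, and 0.55 in males alone. In the imprinted Dlk1-Dio3 cluster, 24 of 34 had lower values and the median was -0.26, with -0.62 in males and 0.08 in females. Its member miR-487b-3p had 0 reads in all 8 irradiated mice and 25 reads in 5 of 16 sham mice (edgeR adjusted p = 0.123). Of the 23 miRNA that the study names for plasma, a list it chose on these samples, 1 was called, miR-216a-5p, and the median was 0.16.

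**Figure D5:**
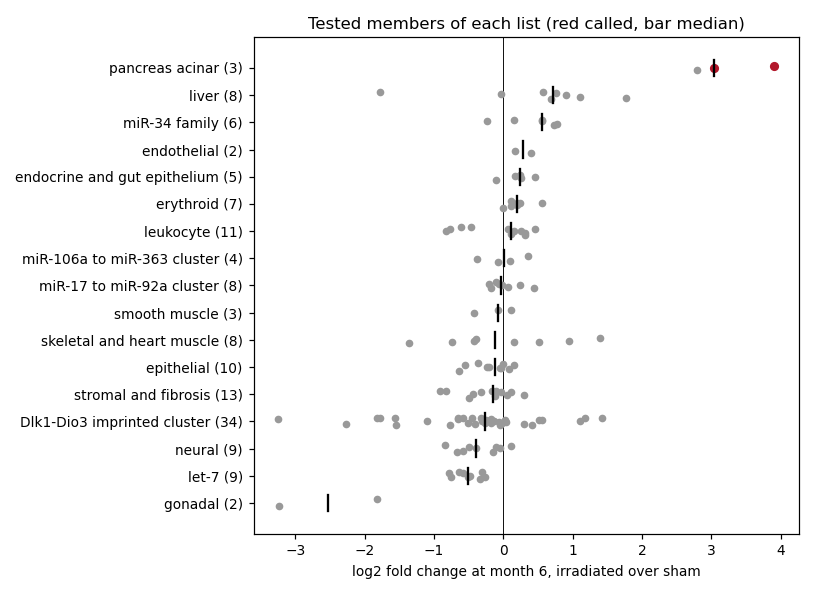
Log2 fold change of irradiated over sham mice at month 6 on the x axis for the tested members of 17 lists (y axis, number of members in parentheses), with called members in red and a bar at the median. The acinar list lies at 2.79 to 3.91, the gonadal list has the lowest median (-2.53) and all 9 let-7 members lie below 0.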

How the data were processed

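Plasma miRNA was sequenced by the authors with the QIAseq kit, and the deposited values are raw counts of reads per mature miRNA, assigned with a BaseSpace small RNA application, without normalization. The submitters' processing notes name the build mm10. Hemolysed plasma had been left out by the authors. The miRBase release and the use of molecular identifiers are not given in the sources used here, so intervals cover counting error only. The table holds 1915 miRNA, and no pair of sample columns was identical.

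Counts were normalized by TMM in edgeR 4.0.16 (R 4.3.3), filtered by filterByExpr (483 miRNA with 99.99% of reads) and fitted by quasi-likelihood over all plasma samples of the series, giving 32 group means and 867 residual degrees of freedom. Sexes were separated in a second model. The authors' own normalization, quantile-normalized log2 RPM with limma, was an alternative with limma 3.58.1, beside limma-voom and DESeq2 1.42.0. Log2 CPM used a prior count of 2. Exact permutation tests were run in scipy 1.17.1. In the fit over all plasma samples, p-values rest on the spread within groups over the whole series, not only between the mice compared. That fit took samples as independent and held no term for the mouse, although the same mice recur over time. With the mouse as a fixed replicate block, p-values rest on the spread within mice, and those of the permutation tests on the spread between the mice compared.

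Mouse numbers in the labels mark the same animal over time. Deviations from group means in the same mouse correlated by -0.04 on average between the sample before irradiation and month 6, and by 0.15 between months 5 and 6 (118 abundant miRNA, 24 mice). The mouse was a replicate block in the test of own changes and in alternatives.

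miRNA named are those called, the ones the study names for plasma, up to 4 of each of the other lists by calls and then abundance, and the 3 of smallest p in each test of a difference. Outside this rule, after their values were seen, miR-99b-5p, miR-125a-5p, let-7d-5p, let-7e-5p, miR-29b-3p, miR-29c-3p, miR-21a-3p, miR-193b-3p and the miRNA named at other times were added. The samples and all 18 lists were chosen with earlier results of these data known. Hairpin positions are from RefSeq and host genes from GENCODE, both GRCm38.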

Additional observations from a re-analysis of the deposited data

Results flagged for a closer look

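In the irradiated group at month 6, the gap of the most distant mouse to its neighbour, as a share of the group's range (Dixon's test, 95% level), was computed for 25 measures and passed the critical value in 6. Chance flags about 1 in 20 for separate measures. Several of these measures describe the same libraries and are not independent, so the count was not tested against that rate. Female 1046 was the distant mouse in 5 of them. Its values were the lowest for miR-216a-5p (0.7655 of the range) and miR-802-5p (0.534) and for the normalization factor (0.652), and the highest for the share of miR-16-5p (0.540) and the summed erythroid level (0.588). Female 1030 was apart by its total reads (0.606). The part of library composition in the low miR-216a-5p of female 1046 was not tested.

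The effect of irradiation on miR-202-5p differed between females and males, by -7.56 on the log2 scale (edgeR's quasi-likelihood test of the interaction). All 4 irradiated females were below all 8 sham females.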

How the results depend on the processing

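The calls of miR-216a-5p and miR-217-5p held with limma-voom, DESeq2, DESeq2's size factors, total counts, quantile-normalized log2 RPM, the erythroid list left out, no filter, the 24 samples alone, their cohort alone, covariates, each sex alone, a random replicate block and without each of the 24 mice in turn. The exceptions were the mean of 10 CPM, at which miR-217-5p was not tested, and the own change with the mouse as a fixed replicate block, which called 0 miRNA. The number of calls at month 6 was 4 with DESeq2's size factors, 61 with no filter on low counts (1403 miRNA tested, 2 of the 61 being those called with the filter), 4 in females only and 4 with the mouse as a random replicate block in limma-voom. It was 2 to 4 when a mouse was left out, with 4 without irradiated female 1030, 1042 or 1046. For own changes, limma-voom with the replicate block called 1 miRNA. The fit without the block called 3, but its baseline was all C57Bl/6 mice sampled before irradiation, so block and mice changed together. The tests between months called 0 with the mouse as a replicate block. The test between the sexes called 2 miRNA by limma-voom. The cause of these shifts was not tested. For miR-202-5p the sign turned in males only (1.54).

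Values without female 1046 in the tests of differences, the sexes, the sets bled early and the erythroid list, and the fit of the 24 mice alone, were added after seeing the data. Without female 1046, 0 were called for own changes and between months and 1 between the sexes, and the 24 mice alone gave 2 at month 6. Depth limits miR-217-5p, miR-216b-5p and miR-202, which had few or no reads in 1 of the groups, so the size of their fold changes is uncertain. The prior count of 2 entered the log2 CPM values only, and the edgeR fits used that tool's default.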
